A study of Mus musculus with 8 samples.

Results

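The stefins and cystatins described here are 7 genes, Stfa1, Stfa2, Stfa3, Stfa2l1, Cstdc5, Cstb and Cst3, taken by symbol from the 32227 genes of the count matrices. They were chosen with their counts in saline and LPS libraries already known, so every LPS value of these 7 genes is given as a description, without a test. Immune cells were isolated from whole brains of male C57Bl/6J mice, 5 to 6 months old by the sample labels, while the methods state a younger range. Each mouse received 1 intraperitoneal injection of saline or of lipopolysaccharide (LPS, 15000000 EU/kg), a bacterial endotoxin, and was killed 24 h later. The brains were not perfused, so cells from blood in the vessels are included. During enzymatic dissociation the tissue was kept in DMSO vehicle or in an inhibitor mixture of actinomycin D, triptolide and anisomycin, which block transcription and translation. All samples were enriched with CD45 magnetic beads and captured by particle-templated partitions (PIPseq). The design gave 2 libraries for each of the 4 combinations, 8 libraries in all, and the replicate number is the batch of the labels. The 8 libraries came from 8 mouse brains.

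Cystatins are small proteins that block papain-like cysteine proteases, the cathepsins. The stefins, or type 1 cystatins, lack a signal peptide and act in the cytosol. Cystatin B, encoded by Cstb, is the widely expressed stefin, and its loss in humans causes a progressive myoclonus epilepsy. In the mouse, a cluster of further stefin A genes lies on chromosome 16 and is known for expression in cells of the neutrophil lineage. Cystatin C, encoded by Cst3, is a secreted type 2 cystatin that microglia and astrocytes make in large amounts in the brain and that is used clinically as a marker of kidney filtration.

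The libraries held between 90352359 and 141182123 UMIs (unique molecular identifiers, which count molecules), with 12039 to 17364 cells within the limits and a median of 2207 to 4762 UMIs per cell. Neutrophils, monocytes, macrophages and microglia were gated by marker genes, none of which is a stefin or cystatin. They numbered 450, 838, 2530 and 45560 cells in the 4 saline libraries and 1489, 3517, 1498 and 43603 cells in the 4 LPS libraries. A single saline library held as few as 55 neutrophils and 97 monocytes. All 10 neutrophil markers were present in the gated neutrophils of every library, at a summed 124347 to 266773 CPM (UMIs scaled to the same total in every library), against 26.0 to 545 CPM in the gated microglia. Cells that met no gate made up 2.91% to 4.37% of saline and 11.9% to 16.6% of LPS libraries. The 10 microglial markers summed to 36064 to 37915 CPM in gated saline microglia and 6754 to 8254 CPM in gated LPS microglia. Whether the cells without a gate include microglia low in these markers was not tested, so values of LPS microglia describe the gated cells only. Pairs of libraries shared 0 to 25 cell barcodes. Free RNA, estimated from barcodes with 1 to 99 UMIs, held 15.5% to 33.7% of a library's UMIs, and the level it would give is printed beside low values. That level was scaled in each class by Hba-a1, Hba-a2, Hbb-bs, Hbb-bt and Ttr, genes taken not to be made by these cells, and has its own error. It can exceed the count, as for Ctss in saline neutrophils, with up to 1129 CPM expected and at most 721 counted.

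The stretch just before the transcription start is shown for the 5 chromosome 16 stefins and Cst3, because the 5 stefin genes were all higher in LPS neutrophils and their promoters are alike in sequence. Sequences are from RefSeq, build GRCm38.p6, the 120 bases before the annotated start, written 5′ to 3′ on the gene's strand. Capitals mark the longest run that the 5 stefins share in this stretch. They were read at chr16:36156691-36156810 (plus strand, Stfa2l1), chr16:36277028-36277147 (plus, Stfa1), chr16:36367571-36367690 (minus, Cstdc5), chr16:36408364-36408483 (minus, Stfa2), chr16:36455393-36455512 (minus, Stfa3) and chr2:148875513-148875632 (minus, Cst3).
Stfa2l1: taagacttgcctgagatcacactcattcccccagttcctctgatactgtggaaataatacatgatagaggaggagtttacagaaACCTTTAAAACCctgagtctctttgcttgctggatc
Stfa1: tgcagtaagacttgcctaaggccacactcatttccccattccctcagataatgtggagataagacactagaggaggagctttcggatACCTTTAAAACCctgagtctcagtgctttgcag
Cstdc5: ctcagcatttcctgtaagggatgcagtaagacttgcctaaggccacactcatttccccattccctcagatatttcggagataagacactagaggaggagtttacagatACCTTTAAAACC
Stfa2: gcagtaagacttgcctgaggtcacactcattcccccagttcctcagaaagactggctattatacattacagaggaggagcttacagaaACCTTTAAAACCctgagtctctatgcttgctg
Stfa3: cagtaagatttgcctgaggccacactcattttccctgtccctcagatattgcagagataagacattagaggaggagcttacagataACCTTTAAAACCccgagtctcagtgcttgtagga
Cst3: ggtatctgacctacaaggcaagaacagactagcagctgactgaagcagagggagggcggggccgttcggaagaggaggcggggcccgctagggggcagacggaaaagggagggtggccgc

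The shared run ACCTTTAAAACC is 12 bases long and occurred on either strand in 11 of 32544 different promoters (0.0338%), those of the 5 stefins, of Csta3, Cstdc3, Cstdc4 and Gm7260 of the same cluster, and of Cdc42ep4 and Gm39539. It contains TTTAAAA, a run like a core promoter box, which was found on either strand in 8.76% of all promoters of the same 300-base window (250 bases before to 50 after the start). A C/EBP-like motif, TTGCNNAA, was present in the windows of Stfa1 and Cstdc5 and in 10.8% of all promoters. A PU.1-like motif, GAGGAAGT, was in none of the 6 windows and in 3.11% of all promoters, and an NF-kappaB-like motif, 3 G and then 2 C with 5 bases of any kind between, was in the windows of Cst3, Stfa1, Cstdc5 and Stfa2 and in 51.0% of all promoters. Both strands were searched, and a match describes letters only. The whole windows of the 5 stefins were 80.7% to 96.4% identical in pairs, with Stfa1 and Cstdc5 the closest.

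Among the 5 stefins, transcripts of 2 pairs were close enough that their counts may be hard to tell apart. In the reference annotation Stfa1 and Cstdc5 were 97.1% identical with a shared run of 128 bases, and Stfa2 and Stfa2l1 were 95.7% identical with a shared run of 97 bases, while the other 8 pairs of the 5 stefins were 75.4% to 82.2% identical with shared runs of 21 to 28 bases. Outside the 5, Cstdc6 of the same cluster was 95.3% identical to Cstdc5 with a shared run of 138 bases. To Stfa1 it was 94.1% identical with a shared run of 71 bases. Of the 100-base windows of Stfa1, 5.60% also occurred in another gene, and of those of Cstdc5, 13.1% did. The last 100 windows of each of the 7 transcripts, at the 3′ end where reads of this method fall, were each found in no other gene. Counts of single stefins are uncertain to the extent that the aligner split or dropped such reads.

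In neutrophils, all 5 chromosome 16 stefins and Cstb were higher in the 4 LPS libraries than in the 4 saline libraries, with no overlap. Levels are given as CPM scaled by the trimmed mean of M-values (TMM) over the genes tested in that cell class, in the order DMSO replicates 1 and 2, then inhibitor replicates 1 and 2. Stfa2l1 had the highest counts of the 5. Its levels were 30.4, 119, 235 and 166 TMM-scaled CPM in saline libraries and 1224, 1204, 1280 and 898 in LPS libraries. The fitted log2 fold change, LPS over saline, was 3.13 (SE 0.45, n = 4 and 4), or 8.78-fold.

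Stfa1 measured 5.53, 39.8, 0 and 8.30 TMM-scaled CPM in saline neutrophils and 556, 506, 233 and 158 in LPS neutrophils. Cstdc5, the gene closest to it in sequence, measured 11.1, 27.3, 0 and 8.30 in saline libraries and 463, 541, 235 and 105 in LPS libraries. Saline DMSO replicate 2 was the highest saline library for both, and the DMSO libraries were the higher LPS libraries for both. The log2 fold changes were 4.20 (SE 0.59) for Stfa1 and 4.35 (SE 0.59) for Cstdc5. Of the 36 saline UMIs of Stfa1, 32 came from saline DMSO replicate 2, and without that library its value was 6.00.

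Stfa2 had few counts in saline neutrophils, with 4 UMIs in 450 cells (0, 3.73, 0 and 4.15 TMM-scaled CPM). In LPS libraries it measured 129, 447, 219 and 210 TMM-scaled CPM, 649 UMIs in all. Stfa3 measured 2.76, 16.2, 0 and 0 in saline libraries, where 13 of its 14 UMIs came from DMSO replicate 2, and 354, 432, 235 and 142 in LPS libraries. The fitted log2 fold changes were 6.49 (SE 0.61) for Stfa2 and 5.11 (SE 0.57) for Stfa3, and both rest on very few saline counts. Without saline DMSO replicate 2 they were 7.28 and 7.50, and with a minimum of 1500 UMIs per cell 8.19 and 6.56.

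Cstb, which every class held, differed less. It measured 82.9, 95.7, 98.6 and 125 TMM-scaled CPM in saline neutrophils and 378, 301, 270 and 309 in LPS neutrophils, a log2 fold change of 1.66 (SE 0.24). Cst3 went the other way, with 2873, 2683, 4514 and 3425 in saline libraries and 1694, 2715, 2001 and 2370 in LPS libraries (log2 fold change -0.62, SE 0.28). The groups overlapped for Cst3 on this scale by 1 LPS library, DMSO replicate 2, and did not overlap as unscaled CPM, with relative-log-expression (RLE) scaling or as UMIs per cell, where LPS libraries were lower. As unscaled CPM, Cst3 in LPS neutrophils (1551 to 2153) lay at the level that free RNA alone would give (1520 to 2163), and in saline neutrophils (2447 to 5432) within the range it would give (1711 to 7835). Cst3 in neutrophils is therefore not read as expression by these cells. For the stefins free RNA would give at most 1.79 CPM over the 5 genes together, against 1375 to 2497 CPM counted in LPS neutrophils. All 7 genes passed the filter on low counts in neutrophils, which asked for 16 unscaled CPM in 4 libraries. Stfa1 and Cstdc5 reached that in 1 saline library and Stfa2 and Stfa3 in 0, so these 4 passed only through the LPS libraries, where they were high. On all 4 scales 6 of 7 genes were higher without overlap. Of the 6467 genes tested, 13.5% were higher and 9.22% lower without overlap with TMM scaling, 12.8% and 10.1% with RLE scaling, 8.64% and 12.3% as unscaled CPM, and 3.25% and 29.8% as UMIs per cell. Because the genes were chosen on this contrast, nothing is read from those shares.

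Monocyte markers moved with these values in gated neutrophils, from a summed 3031 to 7017 CPM in saline to 10804 to 14610 CPM in LPS libraries, with 9 to 10 of the 10 markers above 0, while LPS monocytes themselves held 5454 to 6820 CPM. Chil3 and Ifitm6, which neutrophils also express, made up most of the LPS sum, with 4841 to 6987 CPM of Ifitm6 against 232 to 339 CPM in LPS monocytes. Ccr2, the chemokine receptor of classical monocytes, stood at 0 to 14.0 CPM in LPS neutrophils and 167 to 260 CPM in LPS monocytes. Of the gated neutrophils, 204 of 450 saline and 1070 of 1489 LPS cells also met the monocyte gate. In a split chosen after seeing the data, neutrophils that did not meet it held 76.3 to 163 unscaled CPM of Cstb in saline and 227 to 469 in LPS libraries, and 92.2 to 560 and 843 to 1294 CPM of the 5 stefins together, in both cases without overlap. Of single stefins only Stfa2l1 did not overlap in these cells (92.2 to 560 and 573 to 1002 CPM), by a narrow gap. Its 560 CPM rests on 35 UMIs in 48 cells of saline inhibitor replicate 2. Stfa1 (0 to 38.1 and 0 to 180), Stfa2, Stfa3 and Cstdc5 overlapped, on 246 saline and 419 LPS cells. The share of all genes without overlap was not counted in these cells, so nothing is read from the lack of overlap. In the cells that met both gates the summed stefins were 33.6 to 187 and 1434 to 3089 CPM.

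**Figure D1:**
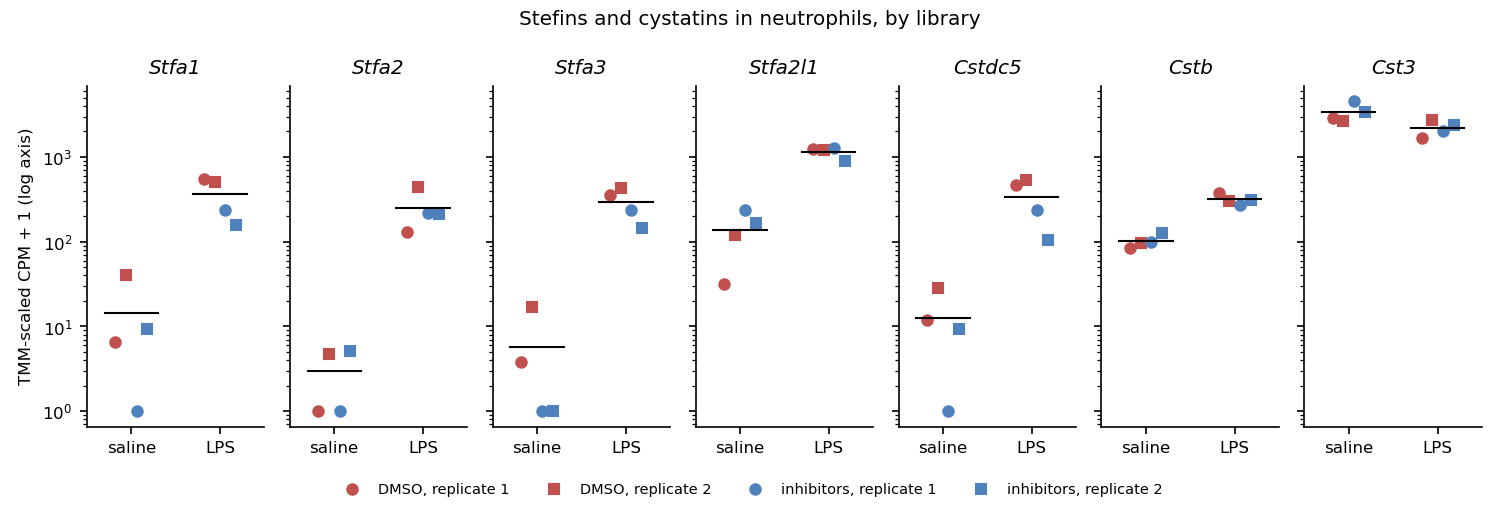
TMM-scaled CPM + 1 (log axis) of the 7 genes in gated neutrophils, with 1 point per library, saline on the left and LPS on the right of each panel, colour for the ex vivo treatment, shape for the replicate and a line at the mean of 4 libraries. The LPS points of the 5 stefins and Cstb lie above all saline points, while those of Cst3 overlap on this scale.

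Stefin counts were concentrated in part of the neutrophils. At least 1 of the 5 stefin genes was detected in 7.32% to 16.4% of saline neutrophils and in 42.1% to 50.8% of LPS neutrophils. The saline neutrophils were deeper, with a median of 1740 to 2378 UMIs per cell against 1372 to 1636, and when each cell was thinned to 800 UMIs the shares were 4.51% to 12.5% and 32.5% to 40.1%. The groups did not overlap either way. Cells with at least 2 of the 5 genes made up 0% to 2.71% of saline and 15.2% to 20.6% of LPS neutrophils, and 4 to 7 cells in each LPS library held all 5. The tenth of neutrophils with the most stefin UMIs held 70.8% to 76.5% of them in LPS libraries, and a single cell held up to 306. Among single genes, Stfa2l1 was detected in 27.1% to 35.2% of thinned LPS neutrophils, against 0.0237% to 0.0600% of thinned LPS microglia, a cell type in which it should be absent. Stfa1, Stfa2, Stfa3 and Cstdc5 were each detected in at most 10.5% of thinned LPS neutrophils in any library.

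Of the UMIs of the 5 chromosome 16 stefins in the 8 immune classes gated, neutrophils held 92.3% in LPS libraries (6045 UMIs) and 80.7% in saline libraries (260 UMIs). Cells that met both the neutrophil and the monocyte gate were counted as neutrophils by rule. In the order DMSO, then inhibitor replicates, they held 1416, 1531, 1150 and 1408 of these LPS UMIs and 10, 64, 9 and 10 of the saline UMIs. The split between neutrophils and monocytes therefore depends on that rule. Microglia held 4.30% and 16.5%. Their summed stefin level, 0.896 to 1.36 CPM in LPS and 0.253 to 0.535 CPM in saline libraries, compared with 0.519 to 0.875 and 0.0969 to 0.381 CPM expected from free RNA. Macrophages held at most 5 stefin UMIs per library. Of the 5 chromosome 16 stefins only Stfa1 passed the filter of the LPS fit in microglia, with 81 UMIs in 43603 LPS cells and 5 in 45560 saline cells. It reached the filter's limit of 0.232 CPM in LPS libraries only. Its 0.241 to 0.460 CPM there lay above the 0.0503 to 0.131 CPM that free RNA would give. Neutrophil markers in gated microglia moved with it, from 26.0 to 225 CPM in saline to 390 to 545 CPM in LPS libraries, with all 10 above 0. If those marker UMIs came from neutrophils of the same library, they would carry 0.320 to 1.46 CPM of Stfa1 and 3.07 to 7.17 CPM of the 5 stefins into LPS microglia, as much as was counted or more except for Stfa1 in inhibitor replicate 2. Since that estimate exceeded the summed count, it does not measure how much was carried. The source of the stefin counts in LPS microglia was not tested, and they are not read as expression by these cells. In saline microglia the same markers would carry 0.0190 to 0.194 CPM of the 5 stefins, less than was counted in 4 of 4 libraries, on 9 to 24 stefin UMIs per library.

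Monocytes after LPS held stefin UMIs in another mix than neutrophils. Saline monocytes held 0 UMIs of Stfa3 and of Stfa2l1 in 838 cells, which allows up to 1.09 CPM (3 UMIs over the group, counting error only). LPS monocytes held 39, 16, 24 and 28 UMIs of Stfa3, or 5.26 to 8.53 CPM, where free RNA would give 0.133 to 0.158 CPM. Against that floor over the group, Stfa3 was 6.46-fold higher in LPS monocytes. Stfa2l1 held 47, 3, 25 and 10 UMIs, or 0.986 to 9.61 CPM, where free RNA would give 0.396 to 0.702 CPM. Against the same floor Stfa2l1 was 5.13-fold higher, or 3.39-fold without LPS DMSO replicate 1, and LPS DMSO replicate 2 lay below the floor. Neutrophil markers counted in LPS monocytes (313 to 598 CPM) would carry 0.364 to 0.688 CPM of Stfa3 at the ratio in neutrophils of the same library, below the count in 4 of 4 libraries. Of Stfa2l1 they would carry 1.88 to 2.38 CPM, below the count in both replicates 1 and not in replicates 2. The UMIs sat in few cells, which the floor does not take into account, so these folds are not lower bounds. Stfa3 was detected in 45 of 3517 LPS monocytes (1.28%), and 1 cell held 34 of the 85 Stfa2l1 UMIs.

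Stfa3 made up 41.9% to 73.7% of the stefin UMIs of LPS monocytes in the 4 libraries and 9.40% to 13.8% of those of LPS neutrophils. The ranges did not overlap. Stfa1 made up 3.92% of the pooled monocyte stefin UMIs (8 of 204) and 14.6% of those of neutrophils. Another stefin gene was held by 3 of the 45 monocytes with Stfa3 and by 29 of the 3472 without it. Among the top 8% of doublet scores of their library were 1 of the 45 and 74 of the 3472. The summed neutrophil markers in monocytes with Stfa3 were 281, 739, 391 and 2268 CPM in the 4 LPS libraries, against 344, 523, 311 and 552 CPM in monocytes without it. They were higher in 3 of 4 libraries, by the most in inhibitor replicate 2. The cells with Stfa3 were also deeper, with a median of 4749 to 12194 UMIs by library against 2480 to 3040.

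Outside neutrophils, Cstb was the stefin with the broadest difference. In monocytes it measured 95.5, 200, 196 and 221 TMM-scaled CPM in saline libraries and 1061, 969, 1084 and 774 in LPS libraries (log2 fold change 2.43, SE 0.24). In macrophages it measured 183, 264, 188 and 240 in saline libraries and 1621, 1582, 1410 and 1751 in LPS libraries (2.87, SE 0.16). In microglia it measured 85.9, 117, 91.5 and 121 in saline libraries and 431, 501, 371 and 527 in LPS libraries (2.14, SE 0.16). The LPS and saline libraries did not overlap in any of these 3 classes, and the same held, with LPS higher, for 16.5%, 22.1% and 28.1% of all genes tested. In every class the level was far above free RNA, which would give at most 36.0 CPM. In thinned cells Cstb was detected in 59.0% to 63.9% of LPS macrophages, 44.0% to 57.3% of LPS monocytes, 21.1% to 25.5% of LPS microglia and 15.2% to 19.2% of LPS neutrophils, against 14.1% to 16.8%, 6.29% to 16.4%, 8.33% to 9.66% and 5.57% to 11.3% in saline.

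Cst3 was lower after LPS in monocytes and macrophages. In macrophages it measured 7848, 9855, 9063 and 10603 TMM-scaled CPM in saline libraries and 2892, 3661, 4025 and 4865 in LPS libraries (log2 fold change -1.27, SE 0.17), and in monocytes 3445, 3716, 5294 and 4698 against 1573, 2166, 2010 and 2251 (-1.10, SE 0.21). All LPS libraries lay below all saline libraries on the unscaled, TMM, RLE and per-cell scales alike. On the TMM scale this held for 23.1% of all genes tested in macrophages and 14.8% in monocytes. The 10 microglial markers moved with Cst3 in macrophages, from a summed 4766 to 5457 CPM in saline to 637 to 904 CPM in LPS macrophages, with all 10 detected in each, and their part in the Cst3 difference was not tested. In monocytes the same markers summed to 1434 to 2465 CPM in saline and 395 to 546 CPM in LPS libraries, and free RNA alone would give 1848 to 3897 and 827 to 1484 CPM of Cst3, where 3633 to 5630 and 1525 to 2125 unscaled CPM were counted.

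In microglia, Cst3 took several percent of all UMIs, and its direction depended on the scale. As unscaled CPM it was lower in all 4 LPS libraries, 25414 to 37678 against 52337 to 62036 (log2 ratio of means -0.94), but the median gene was lower by nearly as much (-0.91), which left -0.03. With TMM scaling the values were 37412, 47507, 42020 and 52432 in saline and 32105, 34483, 35285 and 54158 in LPS libraries (log2 fold change -0.20, SE 0.23), and the groups overlapped, while 30.1% of all genes were lower without overlap. With RLE scaling the log2 ratio was -0.10, also with overlap. Counted per cell, microglia held 169, 138, 191 and 148 Cst3 UMIs in saline and 141, 138, 154 and 226 in LPS libraries, a log2 ratio of 0.03. Relative to the median gene, Cst3 in microglia thus lay at -0.03 unscaled and with TMM scaling, -0.04 with RLE scaling and 0.02 per cell, while Cstb was 2.31 above it with TMM scaling and 2.37 per cell. The unscaled median shifts of the other classes were -0.19 in neutrophils, -0.16 in monocytes and -0.37 in macrophages, and those with TMM scaling -0.02, -0.04 and -0.04.

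**Figure D2:**
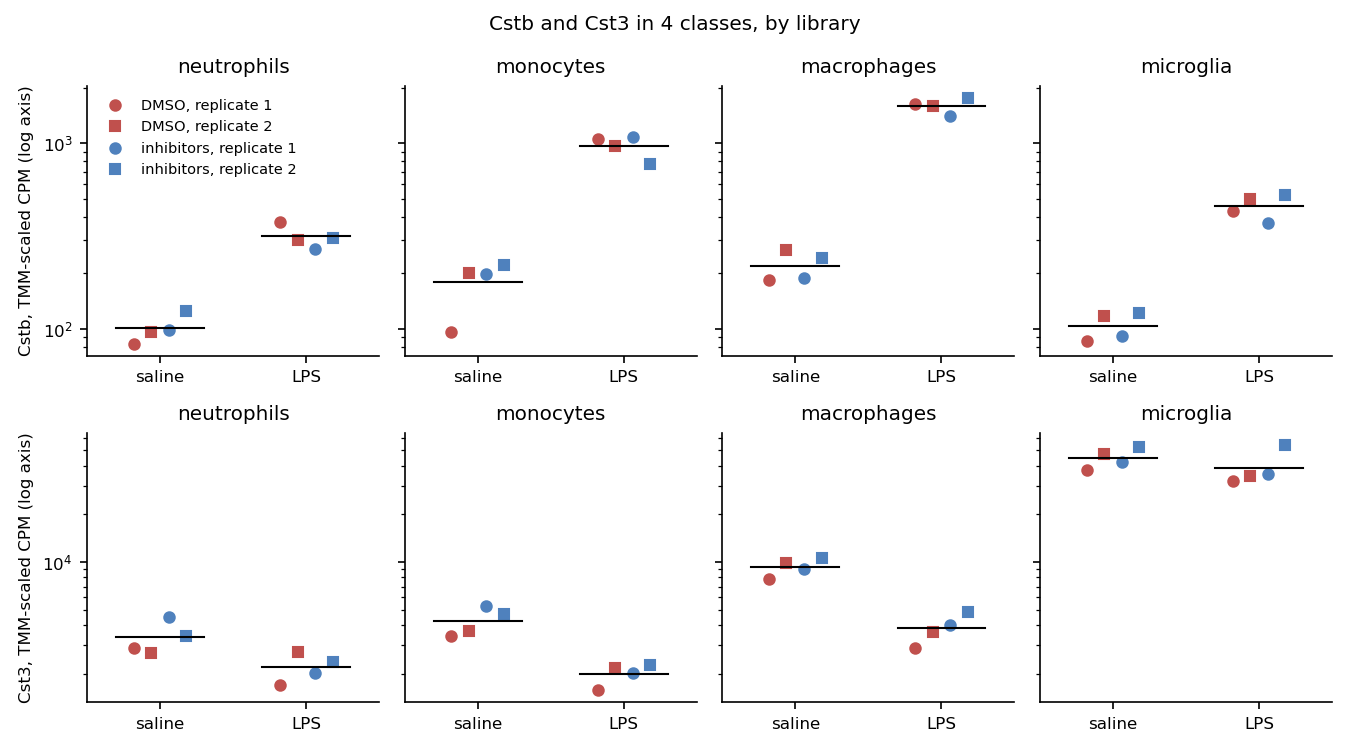
TMM-scaled CPM (log axis) of Cstb in the upper row and Cst3 in the lower row in 4 gated classes, with 1 point per library and a line at the mean of 4. Cstb is higher in all LPS libraries of every class. Cst3 is lower in monocytes and macrophages, and in microglia it overlaps on this scale with LPS inhibitor replicate 2 at 54158, while as unscaled CPM all 4 LPS libraries are lower.

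**Figure D3:**
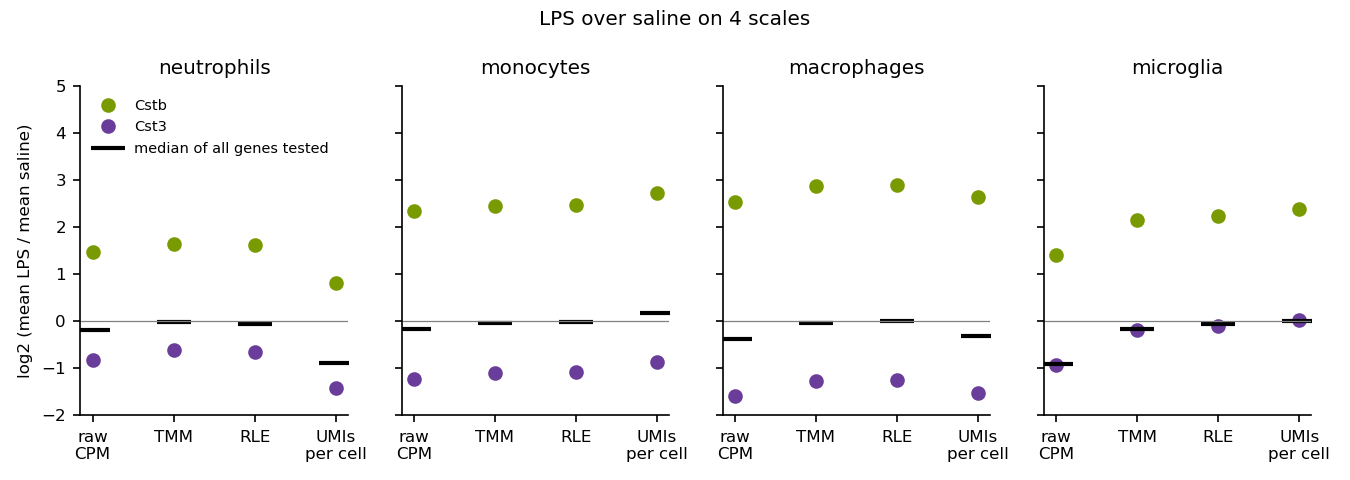
Log2 ratio of the mean LPS over the mean saline level of Cstb and Cst3 on 4 scales in each class, with a bar for the median of all genes tested. In microglia the Cst3 point follows the bar from -0.94 as unscaled CPM to 0.03 as UMIs per cell, and Cstb stays above the bar on every scale.

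In the smaller classes, gated in the same way and given as unscaled CPM, dendritic cells carried the most Cst3. With 18 to 46 cells per library, they held 12269 to 16667 CPM in saline and 18507 to 31318 CPM in LPS libraries, so that the 4 LPS libraries were higher, the opposite of macrophages. T-cells overlapped (2455 to 4124 and 2542 to 3785), and B-cells (2240 to 4118 and 965 to 2170) were lower in LPS libraries, as were 13.2% of all genes in B-cells. Free RNA would give 1447 to 3102 CPM of Cst3 in saline and 714 to 1225 CPM in LPS B-cells, much of the count, and at most 2586 CPM in T-cells and natural killer cells. Natural killer cells overlapped (1711 to 3634 and 793 to 2548). Cstb was higher in LPS dendritic cells (242 to 423 against 66.1 to 127 CPM), T-cells (193 to 238 against 83.6 to 111) and natural killer cells (183 to 281 against 49.1 to 144), and overlapped in B-cells. As unscaled CPM, Cstb was thus higher without overlap in 7 of 8 classes. Among genes with 10 or more UMIs over the 8 libraries, 7.37% were higher without overlap in dendritic cells, 3.87% in T-cells, 5.97% in natural killer cells and 2.17% in B-cells.

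The ex vivo comparison asked whether dissociation without inhibitors altered these genes, and it was not used to choose them. Over all 8 libraries, with the in vivo treatment in the model, 0 of 7 genes were called in neutrophils by edgeR's quasi-likelihood test at an adjusted p under 0.05, beside 0.0464% of all genes tested (3 of 6467, with 255 at an unadjusted p under 0.05). DESeq2 also called 0 of the 7, beside 0.17% of all genes. The largest differences were in 3 stefins. Cstdc5 was higher in DMSO libraries by 1.62 on the log2 scale (SE 0.39, adjusted p = 0.423 with edgeR), Stfa1 by 1.56 (SE 0.42, adjusted p = 0.641) and Stfa3 by 1.22 (SE 0.41, adjusted p = 0.978). Unadjusted p-values of the same edgeR fit were 0.00098, 0.0024 and 0.0096. Within the LPS libraries both DMSO libraries lay above both inhibitor libraries for these 3 genes, and for Stfa2 (0.39, SE 0.46) and Stfa2l1 (-0.51, SE 0.41) they did not. When no filter on low counts was set, which raised the genes tested to 23042, Cstdc5 (adjusted p = 0.0112) and Stfa1 (adjusted p = 0.0154) were called by edgeR, beside 0.148% of all genes (34, of which 33 were higher).

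Cstb and Cst3 did not pass the ex vivo test in any class. For Cstb the log2 differences, DMSO over inhibitors, were -0.01 (SE 0.24) in neutrophils, -0.14 (SE 0.23) in monocytes, 0.04 (SE 0.16) in macrophages and -0.01 (SE 0.16) in microglia. For Cst3 they were -0.25 (SE 0.29), -0.33 (SE 0.20), -0.30 (SE 0.17) and -0.29 (SE 0.28) in the same order. The background of called genes was 0.0652% in monocytes, 0.604% in macrophages and 0.396% in microglia.

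Whether the LPS difference itself depended on the inhibitors was tested as an interaction. For Stfa3 in neutrophils, Stfa3 and Stfa2l1 in monocytes and Stfa1 in microglia a combination of treatments held 0 UMIs, so their interaction cannot be estimated and no value is given. Among the other genes that passed the filter, which were 6 of the 7 in neutrophils, 2 in monocytes, 2 in macrophages and 3 in microglia, edgeR called 0, beside 0.0% of genes called by edgeR in neutrophils, monocytes and macrophages and 0.0226% in microglia. At an unadjusted p under 0.05, edgeR found 531, 784, 314 and 409 genes in neutrophils, monocytes, macrophages and microglia, and DESeq2 called 8, 10, 4 and 14 genes at its adjusted p. The genes that DESeq2 called included 0 of the 7, but it gave no adjusted p for Stfa1, Stfa2 and Cstdc5 in neutrophils. Of the 7, only Stfa1 in microglia, one of the genes with a combination at 0, had an unadjusted edgeR p under 0.05 (0.0337). In neutrophils the log2 interaction, DMSO minus inhibitors, was 1.49 for Stfa2l1 (SE 0.72, adjusted p = 0.755 with edgeR) and between -0.79 and 0.59 for Stfa1, Stfa2, Cstdc5, Cstb and Cst3, with standard errors of 0.50 to 2.23. The standard errors of Stfa1, Stfa2 and Cstdc5 were 1.11 or more, so these 3 tests could show only very large differences. For Cstb it was 0.59 (SE 0.46) in monocytes, -0.03 (SE 0.35) in macrophages and 0.12 (SE 0.34) in microglia, and for Cst3 0.30 (SE 0.40), -0.28 (SE 0.37) and -0.27 (SE 0.62).

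Neutrophils were next split by the secondary granule genes Ngp, Camp and Ltf, which are transcribed in immature neutrophils in the bone marrow. Cells with 3 or more UMIs of these genes together (1569 cells) were set against cells with 0 (219 cells) within each library. The cells without were shallower, at a median of 1006 to 1577 UMIs by library against 1445 to 2606. Stfa2l1 was higher in the cells without granule genes in 8 of 8 libraries by CPM, with 161 to 1265 against 20.1 to 202 CPM in saline and 967 to 1579 against 769 to 1171 CPM in LPS libraries, and in 7 of 8 by the share of thinned cells. The same counts, 8 of 8 and 7 of 8, held for Cst3, which is not read as expression by neutrophils. Stfa2 and Stfa3 ran the other way in the LPS libraries, and were higher in the cells with granule genes in 4 of 4 by both measures. Stfa2 spanned 127 to 367 against 0 to 161 CPM there, and Stfa3 137 to 376 against 0 to 161 CPM. The 126 LPS cells without granule genes held only 6 UMIs of Stfa2 and 9 of Stfa3. How many of all genes were higher in 4 of 4, or in 8 of 8, was not counted. Cstdc5 was higher in the cells with granule genes in 4 of 4 LPS libraries by CPM and in 2 of 4 by thinned share, and Stfa1 in 3 of 4 by either. By CPM in saline libraries, Stfa1 was higher in the cells with granule genes in 3 and Stfa2 in 2, with 0 the other way. Stfa3 was higher in the cells without in 2, with 0 the other way, and Cstdc5 in 2, with 1 the other way. The saline cells without granule genes held 0 to 5 UMIs of each of these genes.

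In the edgeR fit of this split, with the library as a block, only Stfa2l1, Cstb and Cst3 passed the filter on low counts. None was called, beside 41.0% of the 739 genes tested (303 genes). Stfa2l1 was at -1.03 (SE 0.42, adjusted p = 0.0649, unadjusted p = 0.0288), Cst3 at -0.36 (SE 0.17, adjusted p = 0.100) and Cstb at 0.01 (SE 0.34). DESeq2 called 2 of the 3, Stfa2l1 (adjusted p = 0.0192) and Cst3 (adjusted p = 0.0284), beside 46.8% of all genes tested. Without the filter, edgeR called Stfa2 (3.64), Stfa3 (2.92), Cstdc5 (2.31) and Stfa1 (2.20), beside 6.5% of the 22826 genes tested (1483 genes, 1428 of them higher). The median of all genes in that fit was 0.72, so the whole scale lay higher. In it Stfa2l1 stood at -0.32 (adjusted p = 0.795 with edgeR), Cstb at 0.74 and Cst3 at 0.35.

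**Figure D4:**
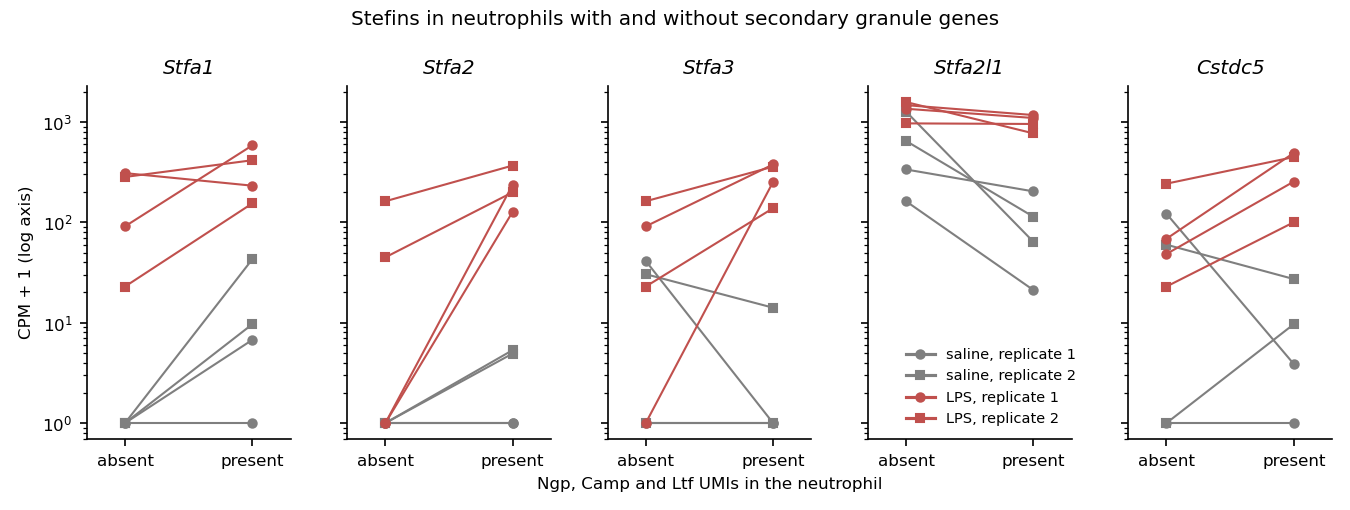
CPM + 1 (log axis) of the 5 stefins in neutrophils with 0 UMIs (absent) and with 3 or more UMIs (present) of Ngp, Camp and Ltf, with a line for each library, grey for saline and red for LPS. Stfa2l1 lines fall from absent to present in 8 of 8 libraries. The LPS lines of Stfa2 and Stfa3 climb in 4 of 4, from 6 and 9 UMIs in all absent LPS cells.

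The other cystatins and the proteases that cystatins inhibit were tested for LPS over saline, since these 28 genes were not chosen on that contrast here, although results of these data were known when they were listed. The cystatins of the list include Cstdc4 and Cstdc6 of the stefin cluster, Cst7, which encodes cystatin F of immune cells, and the kininogens, and the proteases are 10 cathepsins and legumain. In neutrophils 10 were tested and 5 called by edgeR, 3 higher and 2 lower, beside 22.3% of all genes. The median log2 fold change of the 10 was 0.55, against -0.01 for all genes tested. Cstdc6 was higher by 3.72 (SE 0.41) and Cstdc4 by 3.42 (SE 0.54), and no LPS library overlapped a saline library for either. Cstdc6 reached the filter's limit in 1 and Cstdc4 in 3 of 4 saline libraries, so both passed through the LPS libraries, where they were high, and their calls support nothing. In transcript sequence Cstdc6 was 95.3% identical to Cstdc5, and Cstdc4 was 78.8% to 82.4% identical to the 5 stefins. Ctsl, encoding the lysosomal endopeptidase cathepsin L, rose by 2.73 (SE 0.28, adjusted p = 2.43e-05), but its 47.6 to 100.4 unscaled CPM in saline and 379 to 453 in LPS neutrophils lay at the level of free RNA (53.8 to 196 and 356 to 534), so it is not read as expression by these cells. Lgmn, encoding the asparaginyl endopeptidase legumain, fell by 1.69 (SE 0.30, adjusted p = 0.00137). The 10 microglial markers moved with it in gated neutrophils, from a summed 1752 to 3725 CPM in saline to 643 to 879 CPM in LPS libraries. Free RNA would give 187 to 804 and 90.6 to 136 CPM of Lgmn, where 348 to 995 and 121 to 174 unscaled CPM were counted, and the part of microglial RNA in the fall was not tested. Cst7 fell by 1.58 (SE 0.47, adjusted p = 0.0257), but its groups overlapped. In edgeR the call was lost with the top doublet scores removed (-1.66, adjusted p = 0.0823) and with inhibitor libraries only (-0.59, adjusted p = 0.590). The call was also lost in edgeR without saline DMSO replicate 2 (-0.59, adjusted p = 0.355). The same held without LPS DMSO replicate 1 (-1.48, adjusted p = 0.0646), LPS inhibitor replicate 1 (-1.37, 0.0945) or LPS inhibitor replicate 2 (-1.59, 0.0710).

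Ctsl was the one gene of the list called higher in all 4 classes. It rose by 2.49 in monocytes (SE 0.21, adjusted p = 1.62e-06), 2.86 in macrophages (SE 0.16, adjusted p = 2.13e-09) and 2.90 in microglia (SE 0.18, adjusted p = 3.65e-08) with edgeR, without overlap between groups. In saline monocytes it lay at the level of free RNA (59.5 to 102 unscaled CPM, with 58.1 to 97.7 expected), and in LPS monocytes above it (361 to 468, with 212 to 341 expected). Ctsf, encoding cathepsin F, fell by 2.51 in macrophages (SE 0.22) and 1.67 in microglia (SE 0.14), again without overlap. In macrophages Ctsf reached the filter's limit of 8.90 CPM in 4 saline libraries and 3 LPS libraries. The fall in microglial markers given above moved with it in macrophages, and microglia held more of it (205 to 248 unscaled CPM in saline and 35.0 to 52.6 in LPS libraries, against 77.2 to 107 and 8.83 to 18.4 in macrophages). The part of microglial RNA in the macrophage value was not tested. In monocytes Ctsf stood at -2.34 (SE 0.39), but its 13.1 to 21.1 unscaled CPM in saline and 1.36 to 5.33 in LPS libraries lay at the level of free RNA (10.6 to 20.1 and 2.08 to 4.26), and it reached the limit of 5.36 CPM in saline libraries only, so this call supports nothing. Ctsc, encoding the dipeptidyl peptidase that activates granule serine proteases, rose by 1.00 in monocytes (SE 0.19) and 1.49 in microglia (SE 0.12) and fell by 1.93 in macrophages (SE 0.14). It spanned 1671 to 2002 unscaled CPM in saline and 380 to 401 in LPS macrophages, against 461 to 478 and 680 to 902 in microglia. The microglial markers also fell in macrophages, and their part in the Ctsc value was not tested. Cst7 rose by 2.34 in microglia (SE 0.18). In macrophages it was higher by 1.42 (SE 0.38), but reached the limit of 8.90 CPM in 4 LPS libraries and 1 saline library.

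By class, 7 of 12 list genes were called in monocytes (4 higher and 3 lower, beside 31.3% of all genes), 9 of 10 in macrophages (3 higher and 6 lower, beside 50.2%) and 10 of 17 in microglia (7 higher and 3 lower, beside 65.3%). Of the genes called, 2 of 5 in neutrophils, 2 of 7 in monocytes, 2 of 9 in macrophages and 1 of 10 in microglia reached the limit of the filter in every library of 1 group only, so these counts are given as a description. The list medians were 0.44, -0.90 and -0.02, against -0.04, -0.04 and -0.18 for all genes tested. Without LPS inhibitor replicate 1, 4 list genes were called in monocytes. Ctsz rose by 1.01 in monocytes (SE 0.20), a call lost with inhibitor libraries only (0.80, edgeR adjusted p = 0.0504). Ctsh, encoding cathepsin H, fell by 1.36 in macrophages (SE 0.15). Ctsh spanned 527 to 660 unscaled CPM in saline and 161 to 202 in LPS macrophages, against 603 to 719 and 300.3 to 371 in microglia, and the fall in microglial markers in macrophages moved with it. Their part in the Ctsh value was not tested. Cstdc4 was higher by 4.02 in microglia (SE 0.51), with 326 UMIs in LPS and 18 in saline libraries, and passed the filter through the LPS libraries, since 1 saline library reached its limit. Its 0.738 to 2.18 unscaled CPM in LPS microglia compare with 0.207 to 0.337 CPM from free RNA and with 1.09 to 2.33 CPM that the neutrophil markers counted there would carry. In monocytes it held 151 UMIs in LPS and 1 UMI in saline libraries and so passed the filter only through the LPS libraries. Its pooled ratio there was 27.4 (95% exact interval 4.84 to 1087, counting error only), and without it 6 of 11 list genes were called in monocytes, with a median of 0.41.

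**Figure D5:**
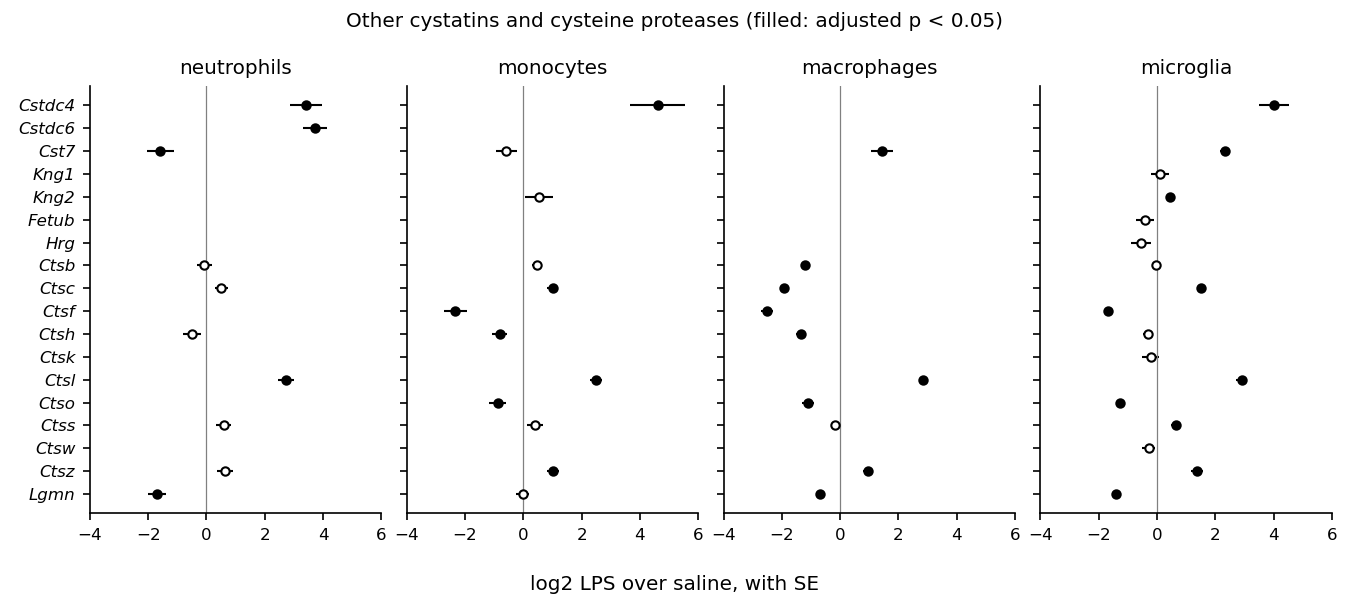
Log2 fold change, LPS over saline, with SE of the other cystatins and cysteine proteases that passed the filter on low counts in each class, filled where the edgeR adjusted p was under 0.05. Ctsl lies to the right in all 4 classes, in neutrophils at the level of free RNA. Ctsf lies to the left in macrophages, microglia and monocytes. In monocytes Ctsf lay at the level of free RNA and passed the filter only through saline libraries. In macrophages it reached the filter's limit in 4 saline libraries and 3 LPS libraries.

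The likeness of patterns was described over the 32 sums of 8 libraries and 4 classes, as Pearson's r of log2(CPM + 1) among 20310 genes, and with no test, since sums of 1 library share depth and free RNA. Stfa1 was closest to Cstdc5 (0.979), Stfa2 (0.955) and Cstdc6 (0.953), and Stfa3 to Stfa1 (0.908), Ostf1 (0.903) and Stfa2 (0.897). Stfa2 and Cstdc5 had neighbours of the same set. Stfa2l1 was closest to 3 genes outside the cluster, Il36g (0.977), Orm1 (0.969) and Scrg1 (0.965). Cstb was closest to Timp1 (0.939), Plekhg4 (0.911) and Mmp14 (0.910).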

How the data were processed

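The deposited files hold raw UMI counts per gene and barcode for each library, which the authors made with PIPseeker 2.0, with STAR alignment to GRCm39 and a GENCODE annotation. The submitters' notes also name Seurat 4. No normalization was applied before deposit, and the barcodes include free RNA. The reference used here is GRCm38, so it served only for promoter and transcript sequences with their own coordinates and for gene order.

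Cells with 800 to 44999 UMIs, 250 to 6499 genes and under 5% mitochondrial UMIs were kept, and the complexity limit of the study was not applied. Classes were gated by marker genes. Cells that met several gates were left out, except that cells meeting only the neutrophil and monocyte gates were counted as neutrophils. Scrublet (scanpy 1.11.5) marked under 0.5% of cells with its own threshold, which is too few to have worked, so doublets were kept and the top 8% of scores removed as an alternative. UMIs were summed per library and class and fitted with edgeR 4.0.16 (quasi-likelihood test, filterByExpr, TMM) in R 4.3.3. P-values were adjusted by the Benjamini-Hochberg method across every gene tested in a class, and genes under 0.05 were called. Each SE of an edgeR fit was derived from the log2 fold change and the F statistic of the test. It is approximate, and can be too small where counts are few. The LPS fit was run on simulated neutrophil and monocyte sums with as many genes raised as lowered. That check does not cover macrophages or microglia, and its outcome is not given here. Alternatives were DESeq2 1.42.0, no low-count filter, stricter gates, a minimum of 1500 UMIs, inhibitor libraries only, removal of top doublet scores, subtraction of free RNA, the replicate block and each library left out. Each in vivo group has 4 libraries. Shares of cells were compared after thinning each cell to 800 UMIs. Floors of 3 UMIs cover counting error only.

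The LPS fit used the in vivo label alone, the ex vivo fit added the in vivo label, and the granule fit used the library as a block. The replicate number marks the batch in the labels and so pairs the samples. Deviations of same-numbered libraries from their group means correlated at 0.12 to 0.37 in neutrophils, 0.15 to 0.26 in monocytes, 0.03 to 0.33 in macrophages and 0.07 to 0.49 in microglia.

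The 7 genes and the list of other cystatins and proteases were chosen with earlier results of these data known. The genes named were the 7, up to 5 called list genes with the largest absolute log2 fold change in each class, and the 3 genes most correlated with each of the 7, of which those of Cst3 are not reported here. Of the 31 list names, 28 different genes remained after older symbols were matched and a gene that is among the 7 was set aside.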

Additional observations from a re-analysis of the deposited data

Results flagged for a closer look

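Among 31 groups of 4 libraries in which the levels of the 7 genes (at 20 or more UMIs in the group) were tested for a sample far from the others, 1 was marked, and chance marks about 1 in 20. Cst3 in LPS microglia measured 54158 TMM-scaled CPM in inhibitor replicate 2, while the other 3 LPS libraries lay between 32105 and 35285. The gap made up 0.856 of the range of the group, above Dixon's critical value for 4 samples. The same library was the highest LPS library as unscaled CPM (37678) and as UMIs per cell (226). On the unscaled scale it lay below all 4 saline libraries.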

How the results depend on the processing

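The fitted LPS log2 fold changes of the 7 genes kept their direction in every alternative fit compared, though on the per-cell scale Cst3 in microglia was at 0.03. Fits with RLE scaling, without the low-count filter and with the ex vivo term were not compared for these folds. Chosen after seeing the data were the unscaled, RLE and per-cell levels, inhibitor libraries only and a minimum of 1500 UMIs for the list genes, and granule library sizes without Ngp, Camp and Ltf. Fold sizes were least certain where saline counts were few. With a minimum of 1500 UMIs per cell the log2 fold changes in neutrophils were 8.19 for Stfa2 and 6.56 for Stfa3, and with inhibitor libraries only they were 1.32 for Cstb in neutrophils and 3.05 for Stfa1 in microglia, while Stfa3 in neutrophils could not be given because both saline inhibitor libraries held none. With expected free RNA subtracted Cst3 in macrophages was at -1.53. Leaving out 1 library each gave 3.91 to 6.00 for Stfa1 in neutrophils, 6.06 to 7.28 for Stfa2 in neutrophils, 4.84 to 7.50 for Stfa3 in neutrophils and 3.41 to 5.24 for Stfa1 in microglia.

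In the ex vivo comparison, 2 of the 7 genes were called in neutrophils without the low-count filter. In the granule comparison 2 were called with DESeq2, 4 without the low-count filter and 1 without the library block, and 0 to 1 with a library left out (1 without LPS DMSO replicate 1 or 2, or saline inhibitor replicate 1). The list genes called in monocytes ranged from 4 to 8 with a library left out.

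Some values that were not called in the reported fits changed sign. For Cstb in the ex vivo comparison these were, in neutrophils, 0.0118 with DESeq2, 0.0686 without the low-count filter, 0.11 with top doublet scores removed, 0.0215 with a stricter gate and 0.0684 without the in vivo term, in monocytes 0.0361 without the in vivo term, and in microglia 0.00099 with a stricter gate and 0.0323 without the in vivo term. With libraries left out they ranged from -0.13 to 0.13 for Cstb in neutrophils, -0.68 to 1.01 for Stfa2 in neutrophils, -0.29 to 0.0807 for Cstb in monocytes, -0.0773 to 0.13 for Cstb in macrophages and -0.11 to 0.12 for Cstb in microglia. In the interaction, Cstb in macrophages was at 0.0251 with a stricter gate, and with libraries left out they ranged from -5.42 to 1.45 for Stfa1 in neutrophils, -4.96 to 0.62 for Cstdc5 in neutrophils, -3.15 to 3.89 for Stfa2 in neutrophils, -0.0129 to 0.48 for Cst3 in monocytes, -0.28 to 0.27 for Cstb in macrophages, -0.55 to 0.0609 for Cst3 in microglia and -0.11 to 0.51 for Cstb in microglia. In the granule comparison Cst3 was at 0.35 without the low-count filter, and Cstb at -0.00662 with DESeq2, -0.0277 with 10 or more granule UMIs, -0.0223 without the library block and -0.22 to 0.24 with libraries left out.

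With the replicate block, which pairs libraries by batch, Cstb in the ex vivo comparison was at 0.0149 in neutrophils and 0.0026 in microglia, and the block changed no call of the 7 genes. Over the alternatives, counts of all genes called ranged from 0 to 34 in neutrophils, 0 to 101 in monocytes, 8 to 120 in macrophages and 3 to 151 in microglia for the ex vivo comparison, 0 to 32, 0 to 68, 0 to 19 and 0 to 39 for the interaction, 245 to 1483 for the granule comparison, and 396 to 1987 for LPS in neutrophils. The causes of these changes were not tested. Few saline neutrophils and monocytes limit the precision of the stefin folds, and few dendritic cells that of their values. Near-identical transcripts may limit which stefin a UMI is assigned to, which was not measured.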
